A study of Mus musculus with 14 samples.

Results

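Cytosolic ribosomal protein genes encode the proteins that, with ribosomal RNA, build the small and large subunits of the ribosome in the cytoplasm. They were read from both deposited tables by gene symbol: every Rps or Rpl symbol with a number, plus Rpsa, Rplp0, Rplp1 and Rplp2, leaving out the Rps6k kinases and symbols that mark pseudogenes. The rule matched 85 rows, of which Rpl32l shared its identifier and all its values with Rpl32 and was counted with it, leaving 84 genes of 23286. Of these, 31 belong to the small subunit, 43 to the large subunit and 3 to the P stalk, the arm of the large subunit that recruits translation factors. The other 7 are listed as paralogs, relatives of a core gene, some of which are used mainly in one tissue. GENCODE M21 annotates 83 of the 84 as protein-coding and 1, Rps4l, as a transcribed processed pseudogene, although its symbol does not mark it as one. Bulk RNA-seq had been made from whole kidneys of 9-week-old mice, taken 5 h after ischemia-reperfusion (IR), in which blood flow to the kidney is stopped and then restored, or after sham surgery. There were 4 groups of 3 libraries: VE-PTPiKO IR, VE-PTPiKO sham, Control IR and Control sham. VE-PTPiKO is the submitters' name for mice in which VE-PTP, a phosphatase encoded by Ptprb that acts on the endothelial receptor Tie2, is targeted. The labels name neither the promoter that drives the deletion nor its timing, nor what the Control mice carry. The series also lists 2 single-cell samples, which were not analysed here.

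Each ribosome holds 1 copy of almost every ribosomal protein, so cells make these proteins in matched amounts, and much of that matching happens after transcription. Ribosomal protein mRNAs usually begin with a 5′ terminal oligopyrimidine (TOP) tract, a run of C and U at the cap through which the kinase mTOR and the RNA-binding protein Larp1 set how well they are translated. In the kidney, as elsewhere, free Rpl5 and Rpl11 bind Mdm2 when ribosome assembly is disturbed, which links ribosome supply to p53. Mammalian genomes also carry many processed pseudogenes of ribosomal protein genes, which are inserted copies of their mRNAs.

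The start of a few genes is shown because the TOP tract is the feature that these mRNAs share. The RefSeq promoter table (build GRCm38.p6) held 63 of the 84 genes. The pyrimidine run CTTTCC, searched on the gene's strand within 30 bases on either side of the annotated start, was found in 12 of these 63 (19.0%), against 3.40% of 27025 genes. The shorter run CTTCC was found in 33.3% of them, against 14.4% of all genes, and CCGGAAG, searched on both strands from 250 bases before to 50 after the start, in 41.3%, against 9.93%. These are matches of letters and not measured sites. In the windows below, which run from 10 bases before to 20 from the annotated start on, capitals mark CTTTCC. The genes were picked for their sequence and not for their values. Rplp2 is shown as one whose run reads differently, and Rpl22l1 as the start of a paralog.
Rps27, chr3:90213629-90213658, minus strand: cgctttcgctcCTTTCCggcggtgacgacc
Rpl38, chr11:114668570-114668599, plus strand: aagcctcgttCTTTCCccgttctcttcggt
Rpl35, chr2:39005112-39005141, minus strand: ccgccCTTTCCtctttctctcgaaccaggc
Rps10, chr17:27635225-27635254, minus strand: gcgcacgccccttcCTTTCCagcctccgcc
Rplp2, chr7:141447641-141447670, plus strand: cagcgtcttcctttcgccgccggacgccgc
Rpl22l1, chr3:28805498-28805527, plus strand: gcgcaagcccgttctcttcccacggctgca

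Between 15427887 and 21296392 reads per library were assigned to genes, recovered as whole reads from the deposited normalized values. Ptprb stood at 75 to 126 CPM (reads scaled to library depth) in VE-PTPiKO IR against 112 to 159 CPM in Control IR, and at 117 to 162 CPM in VE-PTPiKO sham against 168 to 246 CPM in Control sham. All 9 kidney segment markers had reads in every library. Malat1, a nuclear long noncoding RNA, set 3 libraries apart from the others: it took 1.96% of reads in VE-PTPiKO IR replicate 3, 1.15% in VE-PTPiKO sham replicate 2 and 1.02% in Control sham replicate 2. In the other 9 libraries it took 0.327% to 0.564%. Results that rest on these 3 libraries are given with and without them. The labels do not say that libraries come from separate animals, so the p-values reflect spread among libraries that may be technical. In whole tissue, fewer cells of a type and less RNA per cell cannot be told apart.

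Ribosomal protein mRNAs took under 1% of all reads in every library. Their summed share was 0.535%, 0.492% and 0.328% in VE-PTPiKO IR, against 0.445%, 0.337% and 0.336% in VE-PTPiKO sham. It was 0.416%, 0.434% and 0.405% in Control IR, against 0.442%, 0.341% and 0.431% in Control sham. In both genotypes the libraries after IR overlapped with those after sham surgery. Means were 0.452% ± 0.109 in VE-PTPiKO IR and 0.373% ± 0.0627 in VE-PTPiKO sham (SD, n = 3 each), a ratio of 1.21. Means were 0.418% ± 0.0145 in Control IR and 0.405% ± 0.0555 in Control sham (SD, n = 3 each), a ratio of 1.03. The lowest library of VE-PTPiKO IR and that of Control sham were those with high Malat1, and without the 3 such libraries the ratios were 1.31 in VE-PTPiKO and 0.959 in Control. The 5 genes with most reads, Rpl8 and Rplp0 among them, together held 41.0% of all ribosomal protein reads. Genes with long transcripts lay above the group mean, relative to short ones, in all 3 libraries with high Malat1 and also in Control IR replicate 3 and VE-PTPiKO sham replicate 3. The median transcript of the 84 genes was 776 bases long, against 2590 bases over all genes that reach a mean of 1 or more. For each library, the log2 deviations of all genes from the group mean gave a Spearman rho on transcript length. Across the 12 libraries, the ribosomal protein genes' median log2 deviation from the group mean had a Spearman correlation of -0.944 with this rho and of -0.790 with the Malat1 share. Both describe 12 libraries whose deviations are measured from shared group means, and the part of RNA quality in the shares was not tested.

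**Figure D1:**
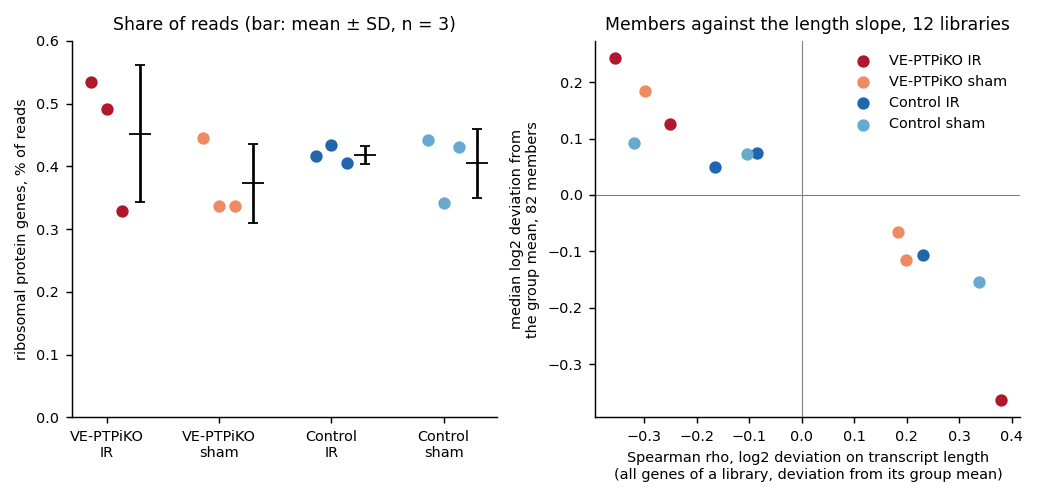
Left, share of reads on the 84 ribosomal protein genes (%) for each library of 4 groups, with mean and SD. Right, median log2 deviation of 82 genes from their group mean against the Spearman rho of all genes' deviation on transcript length, 1 point per library. The share runs from 0.328% to 0.535% and groups overlap, and the 5 libraries with a positive rho are the 5 whose ribosomal protein genes lie below the group mean.

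The core genes, most of whose proteins occur in equal numbers in the ribosome, differed widely in the level read for them. Mean RPKM (reads scaled by transcript length and library depth) over 12 libraries ran from 0.436 for Rpl23a to 481 for Rpl8, a 1103-fold range, with a median of 16.2 over the 77 core genes. Of these, 12 had a mean of at least 100 RPKM, 32 had under 10 and 5 had under 1. The 10 highest, among them Rpl8, Rplp1, Rpl13a and Rplp0, lay between 168 and 481 RPKM. The 10 lowest, among them Rpl23a, Rps16, Rps29, Rpl24 and Rps6, lay between 0.436 and 1.79 RPKM. Rps6, the S6 kinase substrate of the small subunit, was thus read at 1.01 RPKM, while Rps19 of the same subunit was read at 89.6 RPKM. RPKM depends on the 1 transcript taken per gene, which was long for some genes. Rps15a had 589 to 1065 reads per library and stood at 8.34 RPKM on a transcript of 5179 bases. For Rpl18 a transcript of 2989 bases was taken, where the median transcript of the gene has 679 bases.

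Sequence that other genes hold in identical form was counted for each gene. Every 50-base window of 1 transcript per gene was searched, on both strands, in the transcripts of all other genes of the GENCODE M21 annotation. Windows held only by a gene that overlaps the same place in the genome were not counted as shared. They were a further 45.3% for Rpl5 and 55.0% for Rpl35, and 0% for Rps2, Rpl34 and Rpl3. Of the 77 core genes, 76 shared a window with a pseudogene, and in all 1104 pseudogenes shared one with some ribosomal protein gene. Only 10 of those pseudogenes have a row in the tables. The 10 core genes of highest RPKM shared a median of 27.5% of windows, with 0 to 7 pseudogenes each. The 10 of lowest RPKM shared a median of 63.9%, with 5 to 81 pseudogenes each. Across the 77 core genes RPKM had a Spearman correlation of -0.419 with the share of windows and of -0.466 with the number of pseudogenes, and of -0.561 with the share of 100-base windows. These are descriptions across genes, which share libraries and annotation. RPKM and the share of windows also both depend on the length of the same 1 transcript per gene. The submitters' notes name STAR and HTSeq, but the settings for reads that align to several places are not among the labels, and the level of each gene with shared sequence is uncertain. The part of shared sequence in the levels was not tested.

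**Figure D2:**
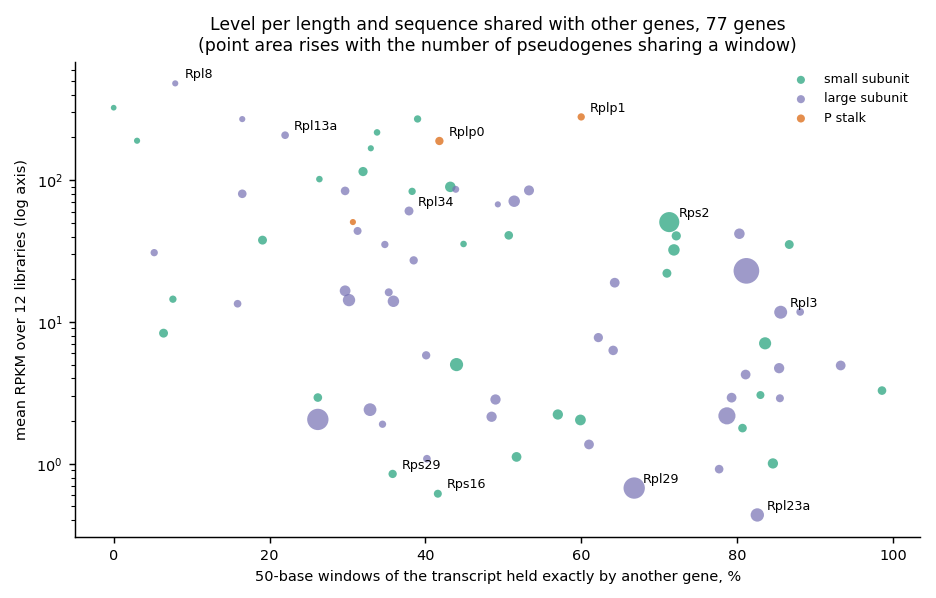
Mean RPKM over 12 libraries (log axis) against the percentage of 50-base windows of the transcript found exactly in another gene that does not overlap it. There is 1 point per core gene (77), coloured by subunit, with point area rising with the number of pseudogenes. Rpl8 stands at the top left at 481 RPKM with 7.90% shared, and Rpl23a at the bottom right at 0.436 RPKM with 82.6% shared.

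Stretches of 90 coding bases show where the genes that varied most between libraries share their sequence. Rps2 and Rpl3 shared 71.3% and 85.6% of windows, and Rpl34 shared 37.9%. Capitals mark bases that lie in a 50-base window found exactly in at least 1 other gene. The reference transcripts are from GENCODE M21, read 5′ to 3′ on the gene's strand. The stretch of Rps2 starts at the first coding base, that of Rpl34 at base 262 and that of Rpl3 at base 697.
Rps2: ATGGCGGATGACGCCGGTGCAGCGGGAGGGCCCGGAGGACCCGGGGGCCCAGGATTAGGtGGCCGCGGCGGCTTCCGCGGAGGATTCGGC
Rpl34: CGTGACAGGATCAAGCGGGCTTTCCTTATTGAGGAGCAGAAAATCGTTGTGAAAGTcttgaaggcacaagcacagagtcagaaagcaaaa
Rpl3: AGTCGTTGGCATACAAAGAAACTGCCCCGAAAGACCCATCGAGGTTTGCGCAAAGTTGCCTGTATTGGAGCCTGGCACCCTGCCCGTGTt

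A few ribosomal protein genes varied far more than the others between libraries of 1 group. The widest ratio of highest to lowest library within any group had a median of 1.92 over the 82 genes with reads in every library. It exceeded 5 in 5 genes, among them Rps2, Rpl34 and Rpl3. Rps2, a small subunit protein near the channel where mRNA enters (mm10, chromosome 17, 24720062 to 24721927), had 1882, 901 and 504 normalized reads in VE-PTPiKO IR, against 1550, 571 and 22.6 in VE-PTPiKO sham. It had 29.1, 802 and 1486 in Control IR, against 1668, 642 and 1731 in Control sham. Rps2 was thus under 30 in 1 Control IR and 1 VE-PTPiKO sham library and at 504 or more in the other 10, a ratio of up to 68.5 within a group. Neither of the libraries with low Rps2 is among the 3 with high Malat1. Rpl34 of the large subunit (chromosome 3, 130726826 to 130730337) had 1347, 642 and 897 normalized reads in VE-PTPiKO IR, against 1078, 48.5 and 443 in VE-PTPiKO sham. It had 538, 1041 and 934 in Control IR, against 40.6, 442 and 558 in Control sham. Its 2 lowest libraries are other ones than those of Rps2. Rpl3, which lines the peptidyl transferase centre (chromosome 15, 80077780 to 80083406), had 556, 522 and 276 normalized reads in VE-PTPiKO IR, against 430, 119 and 203 in VE-PTPiKO sham. It had 291, 340 and 239 in Control IR, against 42.9, 292 and 46.2 in Control sham, so that 2 Control sham libraries were low and the third was not. In contrast, Rplp0 kept all 12 libraries between 3059 and 5970. Whether the swings of Rps2, Rpl34 and Rpl3 come with their shared sequence was not tested. The 1 pseudogene row of the tables that shares windows with Rps2, Gm10653, held 0 to 6 reads per library.

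**Figure D3:**
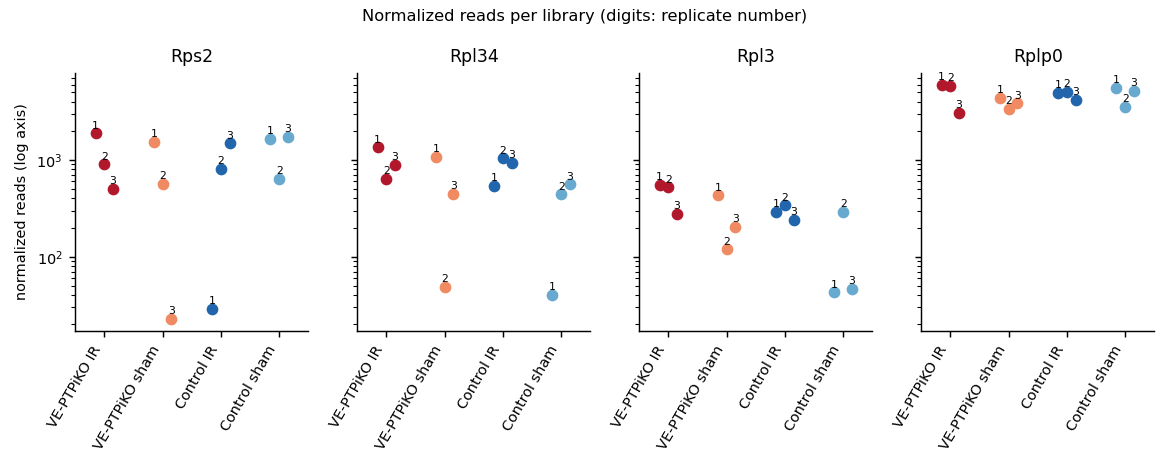
Normalized reads (log axis) of Rps2, Rpl34, Rpl3 and Rplp0 in each library of 4 groups, with the replicate number beside each point. Rps2 falls to 22.6 and 29.1 in 2 libraries, Rpl34 to 40.6 and 48.5 in another 2, and Rplp0 stays between 3059 and 5970.

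In the 3 libraries with high Malat1, more core genes lay below their group mean than above it. This comparison was chosen after the values were seen and is a description. Of the 77 core genes, 38 (49.4%) lay below their group mean in all 3 of these libraries, 18 (23.4%) lay above it in all 3, and 21 were mixed. Over all 16339 genes tested, 27.1% lay below and 29.2% above in all 3, so the share of core genes above was under that of all genes. The 38 genes that lay below had a median of 59.0 RPKM (5.01 to 481) and a median of 35.6% shared windows. They include all 3 P stalk genes, 15 small subunit genes and 20 large subunit genes. The 18 genes that lay above had a median of 2.19 RPKM (0.848 to 11.8) and a median of 69.4% shared windows, and were 7 small and 11 large subunit genes. The 21 mixed genes, Rps2, Rpl34 and Rpl3 among them, had a median of 7.76 RPKM and of 62.2% shared windows. Across the 77 genes, the mean deviation in the 3 libraries had a Spearman correlation of -0.796 with RPKM and of 0.504 with the share of windows, over libraries that all genes have in common.

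Rpl5, which carries 5S RNA into the large subunit and binds Mdm2 when free, is one of the 18 that lay above. It had 51.9, 58.5 and 125.5 normalized reads in VE-PTPiKO IR, against 57.7, 139 and 61.8 in VE-PTPiKO sham. It had 68.0, 60.04 and 65.7 in Control IR, against 57.5, 121 and 65.5 in Control sham. Its highest library in each of 3 groups was the one with high Malat1. Rplp0, the P stalk scaffold, is one of the 38 that lay below, with 5970, 5817 and 3059 in VE-PTPiKO IR, against 4358, 3366 and 3851 in VE-PTPiKO sham. It had 4951, 5097 and 4155 in Control IR, against 5540, 3525 and 5182 in Control sham, so that its lowest library in the same 3 groups was the one with high Malat1.

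**Figure D4:**
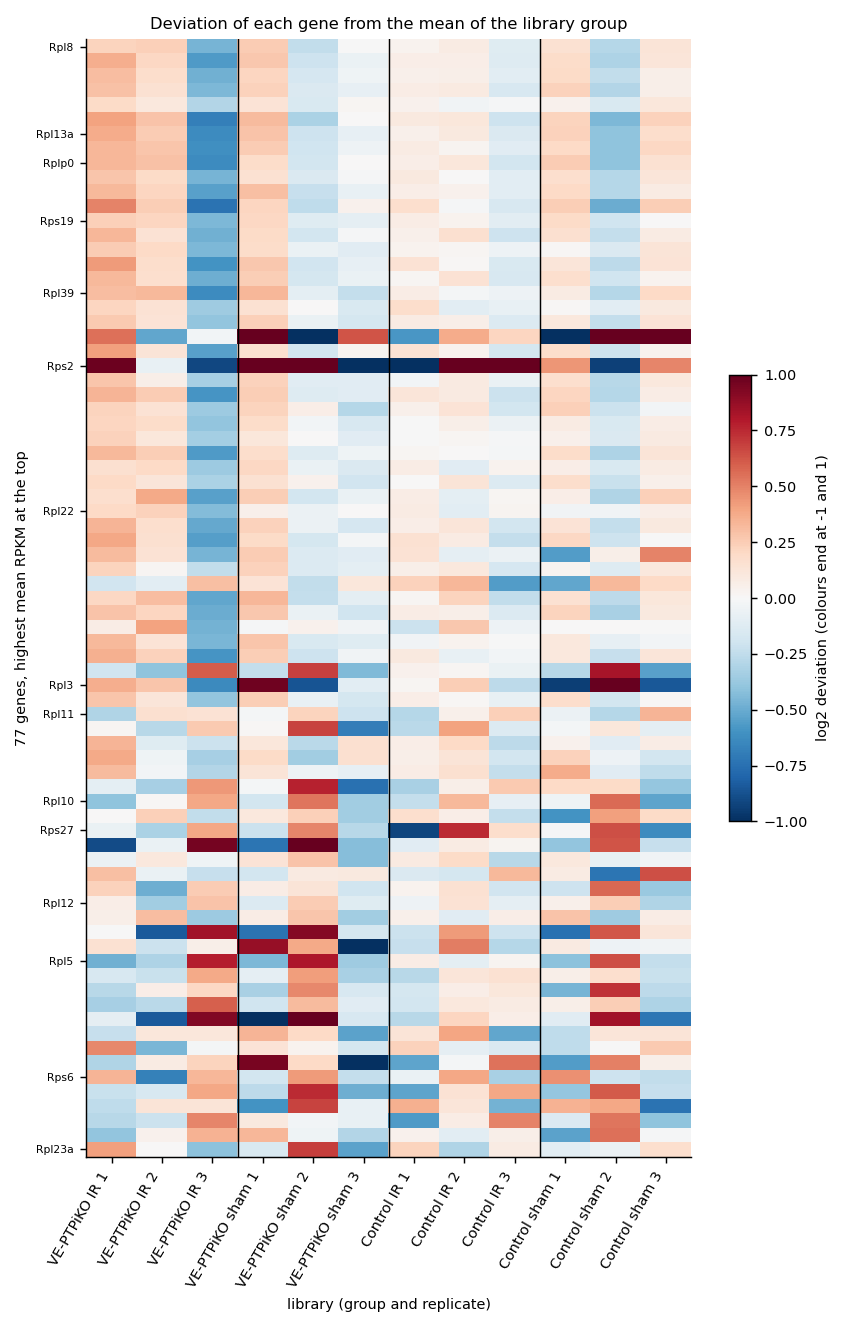
Log2 deviation of each of 77 core genes (rows, highest mean RPKM at the top) from the mean of the library's own group, in 12 libraries (columns), with colours ending at -1 and 1 and some rows named. In VE-PTPiKO IR replicate 3, VE-PTPiKO sham replicate 2 and Control sham replicate 2, rows at the top are mostly blue (below the mean) and many rows at the bottom are red.

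In VE-PTPiKO kidneys no ribosomal protein gene passed the test after IR. Of 82 genes tested, 0 were called higher and 0 lower by limma with Benjamini-Hochberg adjustment at 0.05, where 2.71% of all genes were called (1.92% higher and 0.793% lower). The smallest adjusted p was 0.138, and edgeR and DESeq2 each called 0. At an unadjusted p under 0.05 by limma there were 4 genes. The share of all genes at that level was not counted, so the 4 are not read as a result. The estimates nevertheless lay mostly above 0. The genes share the same libraries, so counts of positive genes, here and below, are not independent results. In VE-PTPiKO IR, 62 and 57 of 82 genes lay above the group mean in replicates 1 and 2, and 24 in replicate 3. The log2 fold change, on log2(value + 1), was positive for 73 of 82 genes (89.0%, against 48.9% of all genes), with a median of 0.22 against -0.01 over all genes. It was positive for 29 of 31 small subunit genes (median 0.26), 37 of 43 large subunit genes (median 0.18) and all 3 P stalk genes (median 0.15). The median was 0.11 after a correction for transcript length. Leaving out single libraries gave medians from 0.14 to 0.40. Without VE-PTPiKO IR replicate 3 it was 0.40 and 10 genes were called higher, namely Rplp0, Rpl13a, Rpl39, Rps3, Rps14, Rpl13, Rps19, Rps21, Rps10 and Rps20, with adjusted p between 0.0205 and 0.0496 by limma. These are 12.2% of the 82, where the same fit called 5.79% of all genes higher and 11.8% in either direction. Without all 3 libraries with high Malat1 the median was 0.39 and Rplp0 alone was called (adjusted p = 0.0430 by limma), which is 1.22% of the 82, where 2.97% of all genes were called higher.

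The 5 genes of highest log2 fold change after IR in VE-PTPiKO kidneys were Rps2, Rpl34, Rpl23a, Rpl3 and Rpl17. For Rps2 it was 1.79 ± 1.28 (SE), for Rpl34 1.68 ± 0.91 and for Rpl3 0.98 ± 0.44, each with the wide spread between libraries given above. Rpl23a, at the exit of the peptide tunnel, had a log2 fold change of 1.54 ± 0.52 (SE, adjusted p = 0.194 by limma). It had 10.4, 7.58 and 5.41 normalized reads in VE-PTPiKO IR, against 1.65, 3.73 and 1.03 in VE-PTPiKO sham, so the groups did not overlap but rested on 1 to 10 reads per library. Rpl17 had 39.4, 30.3 and 36.8 normalized reads in VE-PTPiKO IR, against 34.6, 24.2 and 7.204 in VE-PTPiKO sham, where 1 sham library was far below the others, and its log2 fold change was 0.90 ± 0.51 (SE). The gene of smallest p was Rpl12, at the base of the P stalk, with 84.0, 62.8 and 97.4 normalized reads in VE-PTPiKO IR, against 39.6, 52.2 and 40.1 in VE-PTPiKO sham. Every library after IR lay above every sham library, and its log2 fold change was 0.86 ± 0.26 (SE, adjusted p = 0.138 by limma, and 0.0414 in 1 model of all 12 libraries). That model called 624 of 16339 genes higher. Rpl12 and Rpl23a were the only 2 of 82 genes (2.44%) with all IR libraries above all sham libraries in VE-PTPiKO, against 10.6% of all genes, and 0 lay fully below, against 10.0% of all genes. In the authors' deposited table Rpl12 was the 1 gene called of 78 with an adjusted p (log2 fold change 0.73, adjusted p = 0.0182), where 11.3% of all genes were called. The 5 lowest were Rpl28, Rpl3l, Rpl30, Rps25 and Rpl5, between -0.45 and -0.13.

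In Control kidneys, too, no ribosomal protein gene passed the test after IR, although more genes were called overall. Of 82 tested, 0 were called higher and 0 lower by limma, where 11.5% of all genes were called (7.48% higher and 4.02% lower). The smallest adjusted p was 0.0752, and edgeR and DESeq2 each called 0. At an unadjusted p under 0.05 by limma there were 4 genes, again without a counted share of all genes and not read as a result. The authors' deposited table called 0 of 78, where it called 21.1% of all genes. The log2 fold change was positive for 54 of 82 genes (65.9%, against 48.4% of all genes), with a median of 0.06 against -0.01 over all genes. The median was 0.05 for the small subunit, 0.07 for the large subunit and -0.02 for the P stalk. Without Control sham replicate 2, which is the 1 library of these 6 with high Malat1, the median was -0.02 and Rpl3 and Rpl10a were called higher (adjusted p = 8.1e-05 and 0.00993 by limma), which is 2.44% of the 82, where 8.39% of all genes were called higher. The library left out was the highest of Control sham for both genes. Rpl3 had 292 normalized reads in it, against 42.9 and 46.2 in the others of Control sham. Rpl10a had 198 in it, against 91.4 and 76.2, with 164, 161 and 151 in Control IR.

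The 5 genes of highest log2 fold change after IR in Control kidneys were Rpl34, Rpl3, Rps29, Rps16 and Rpl24. It was 1.89 ± 0.76 (SE) for Rpl34 and 1.77 ± 0.57 for Rpl3 (adjusted p = 0.151 and 0.0752 by limma), whose low values lie in 1 and 2 of the Control sham libraries. Rps29, a zinc-finger protein of the small subunit, had 7.55, 6.27 and 3.81 normalized reads in Control IR, against 3.39, 3.51 and 1.07 in Control sham, without overlap. Rps16 had 15.1, 13.4 and 15.2 in Control IR, against 5.64, 13.2 and 8.59 in Control sham, and Rpl24 had 8.63, 14.3 and 17.1, against 5.64, 12.3 and 6.44. All 3 are among the 10 core genes of lowest RPKM. The 5 lowest were Rps2 (-1.90 ± 1.11), Rpl3l, Rpl5, Rps25 and Rps28 (-0.55 to -0.20). Rps2 is thus the lowest gene after IR in Control and the highest in VE-PTPiKO, with adjusted p = 0.340 and 0.576 by limma. In Control, 5 genes had all IR libraries above all sham libraries, which is 6.10% of those tested against 16.0% of all genes, and 0 lay fully below, against 13.4%. These 5 were Rpl22l1, Rps12, Rps16, Rps23 and Rps29.

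**Figure D5:**
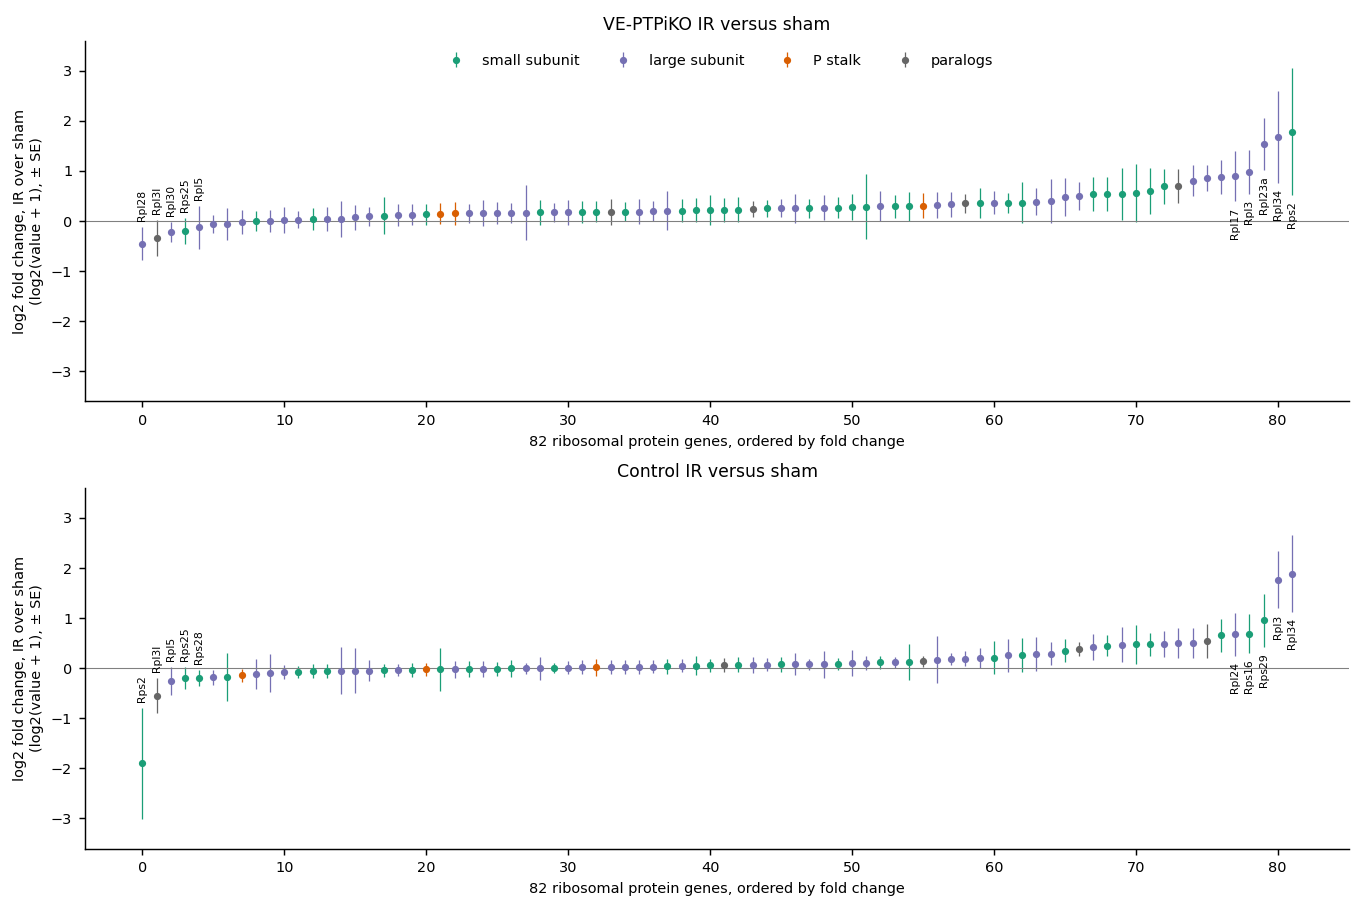
Log2 fold change of IR over sham with its SE for each of 82 ribosomal protein genes, ordered within each panel and coloured by subunit, VE-PTPiKO above and Control below, with the 5 highest and 5 lowest named. In VE-PTPiKO 73 of 82 points lie above 0 and in Control 54 of 82, and Rps2 stands at opposite ends of the panels with the widest error bars.

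The summed levels of leukocyte and of red cell markers were higher after IR in every library of both genotypes. The summed level of 10 leukocyte markers was 112 to 138 CPM in VE-PTPiKO IR against 98.2 to 105 CPM in VE-PTPiKO sham, and 123 to 141 CPM in Control IR against 91.4 to 106 CPM in Control sham. The log2 fold change was positive for 8 of the 10 in VE-PTPiKO (against 48.9% of all genes) and 9 in Control (against 48.4%). Csf1r, which had the most reads of the 10, overlapped between IR and sham in both genotypes. It had 1069, 1044 and 1287 normalized reads in VE-PTPiKO IR, against 1176, 1194 and 1292 in VE-PTPiKO sham. The sum of 5 red cell markers was 45.4 to 127 CPM in VE-PTPiKO IR against 29.5 to 42.5 CPM in VE-PTPiKO sham, and 82.7 to 154 CPM in Control IR against 28.8 to 45.2 CPM in Control sham. Of the red cell markers, Hba-a2 was at 0 in both sham groups. After IR it had at most 2.17 normalized reads, and 0 in Control IR replicate 3 and VE-PTPiKO IR replicates 1 and 3. Of the leukocyte markers, 1 of 10 rose in VE-PTPiKO (Cd68) and 2 of 10 in Control (Cd68 and Lyz2, of which Lyz2 was not called without Control IR replicate 2, adjusted p = 0.0748 by limma). Over all genes, 1.92% were called higher in VE-PTPiKO and 7.48% in Control. Of 4 red cell markers tested, 0 were called in VE-PTPiKO and Alas2 and Hba-a1 rose in Control. The summed level of 9 kidney segment markers was 37976 to 40993 CPM in VE-PTPiKO IR against 36182 to 38506 CPM in VE-PTPiKO sham, which overlap. It was 36054 to 39168 CPM in Control IR against 41006 to 43278 CPM in Control sham, lower after IR in every library, while 0 of the 9 were called in either genotype by limma. Kap had the most reads of the 9 in every library, so these sums rest largely on it. It had 443210, 354783 and 318582 normalized reads in Control IR, against 448640, 378796 and 494051 in Control sham, which overlap. The part of leukocytes, red cells and kidney segments in the ribosomal protein values was not tested.

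No ribosomal protein gene differed between the genotypes past the threshold. In VE-PTPiKO IR against Control IR, 0 of 82 were called by limma on reads normalized together (0% of all genes were called), and edgeR and DESeq2 also called 0 of the 82. At an unadjusted p under 0.05 by limma there was 1 gene. The median log2 difference there was 0.07, with 59 of 82 positive (72%, against 46.4% of all genes). After a correction for transcript length this median was 0.03. The 1 gene at an unadjusted p under 0.05 was Rpl28, with 21.8, 22.7 and 42.2 normalized reads in VE-PTPiKO IR, against 41.0, 50.2 and 49.5 in Control IR (-0.72 ± 0.29, SE). In VE-PTPiKO sham against Control sham, 0 of 82 were called (0% of all genes), and edgeR and DESeq2 also called 0 of the 82. At an unadjusted p under 0.05 by limma there was 1 gene, Rpl3. The median there was -0.09, and 28 of 82 were positive (34.1%, against 52% of all genes). This median became 0.00095 after a correction for transcript length and -0.14 without the 3 libraries with high Malat1. In the same comparison 6 of 78 mitochondrial ribosomal protein genes were positive, and 5 of 75 respiratory chain and ATP synthase genes. Without the 3 libraries with high Malat1, Rpl3 was called higher in VE-PTPiKO sham (2.72, adjusted p = 0.0155 by limma), the 1 gene called of 16218, and the median in IR was 0.25. That fit leaves out the highest Control sham library of Rpl3 (292 normalized reads) and its lowest VE-PTPiKO sham library (119). The difference between the genotypes in the response to IR, tested as an interaction, was called for 0 of 82 genes (0% of all genes), and edgeR and DESeq2 also called 0 of the 82. At an unadjusted p under 0.05 by limma there was 1 gene, Rpl23a. The interaction median of the 82 genes was 0.14 against -0.01 over all genes, with 63 of 82 positive (76.8%, against 47.8% of all genes). The median was 0.02 after the correction for transcript length and 0.37 without the 3 libraries with high Malat1. The interaction was also positive for 62 of 78 mitochondrial ribosomal protein genes (median 0.11). It was positive for 70 of 75 respiratory chain and ATP synthase genes (median 0.18), so the direction was not particular to the cytosolic ribosomal protein genes. Rpl23a and Rpl28 were named here for their p and Rpl3 was named by rule. The share of all genes at an unadjusted p under 0.05 was not counted, so these counts of 1 are not read as results.

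None of the genes with known roles beyond the ribosome or late in its assembly passed the test between IR and sham. Rpl11, the partner of Rpl5 in the 5S particle, had 88.1, 121 and 120 normalized reads in VE-PTPiKO IR, against 107, 126 and 93.7 in VE-PTPiKO sham. It had 100, 126 and 144 in Control IR, against 111, 94.9 and 147 in Control sham, so the groups overlapped in both genotypes (log2 fold changes 0.01 ± 0.22 and 0.08 ± 0.22, SE). The log2 fold change of Rpl5 was -0.13 ± 0.42 in VE-PTPiKO and -0.25 ± 0.28 in Control. Rps6, the target of S6 kinases, averaged 17.0 ± 6.30 normalized reads in VE-PTPiKO IR and 12.6 ± 3.63 in VE-PTPiKO sham (SD, n = 3 each), and 17.3 ± 4.64 in Control IR and 15.8 ± 4.86 in Control sham. Rps19, the gene most often mutated in Diamond-Blackfan anemia, averaged 1356 ± 338 in VE-PTPiKO IR and 1106 ± 147 in VE-PTPiKO sham, and 1286 ± 84.25 in Control IR and 1193 ± 160 in Control sham. Rpl13a, which can leave the ribosome to silence translation of inflammatory mRNAs, averaged 4208 ± 1406 in VE-PTPiKO IR and 3252 ± 606 in VE-PTPiKO sham, and 4069 ± 355 in Control IR and 3949 ± 885 in Control sham. Rpl39, a small protein in the wall of the exit tunnel, averaged 1021 ± 339 in VE-PTPiKO IR and 760 ± 165 in VE-PTPiKO sham, and 883 ± 41.4 in Control IR and 826 ± 139 in Control sham. Rpl10, one of the last proteins to join the large subunit, had 73.6, 98.5 and 128 normalized reads in VE-PTPiKO IR, against 48.7, 80.2 and 43.2 in VE-PTPiKO sham. It had 61.5, 91.4 and 68.5 in Control IR, against 49.6, 76.4 and 35.4 in Control sham, with log2 fold changes of 0.81 ± 0.31 and 0.50 ± 0.30 (adjusted p = 0.249 and 0.355 by limma). Rpl10 shares 85.4% of its windows with other genes.

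The paralogs were read at very different levels beside their core partners. Rpl22l1, a paralog of Rpl22, had 353, 291 and 226 normalized reads in VE-PTPiKO IR, against 224, 206 and 241 in VE-PTPiKO sham. It had 333, 298 and 263 in Control IR, against 239, 213 and 230 in Control sham. Its Control groups did not overlap and its VE-PTPiKO groups did, and its log2 fold changes of 0.35 ± 0.20 and 0.38 ± 0.15 (SE) missed the threshold, with adjusted p = 0.449 in VE-PTPiKO and 0.129 in Control by limma. Rpl22 itself averaged 1116 ± 267 in VE-PTPiKO IR and 1138 ± 48.3 in VE-PTPiKO sham, and 1124 ± 74.3 in Control IR and 1125 ± 45.65 in Control sham (SD, n = 3 each). Per length, Rpl22l1 stood at 26.4 RPKM and Rpl22 at 30.8 RPKM. Rps27l, which is known in human and mouse cells as a p53 target, stood at 138 RPKM, above its partner Rps27 at 3.28 RPKM, of whose transcript 98.6% of windows are shared with other genes. Rps27l averaged 1330 ± 430 normalized reads in VE-PTPiKO IR and 1135 ± 233 in VE-PTPiKO sham, and 1248 ± 89.4 in Control IR and 1210 ± 238 in Control sham. Rps27 averaged 27.8 ± 7.2 in VE-PTPiKO IR and 16.9 ± 5.56 in VE-PTPiKO sham, and 16.9 ± 9.22 in Control IR and 18.3 ± 8.33 in Control sham. Rpl7l1, a relative of Rpl7, stood at 32.2 RPKM with log2 fold changes of 0.24 ± 0.17 in VE-PTPiKO and 0.14 ± 0.12 in Control. Rps4l, a relative of Rps4x that is annotated as a transcribed processed pseudogene, had 166, 152 and 107 normalized reads in VE-PTPiKO IR, against 141, 55.0 and 79.3 in VE-PTPiKO sham. It had 167, 171 and 99.9 in Control IR, against 167, 59.7 and 92.3 in Control sham. Rpl3l, used mainly in heart and skeletal muscle, stood at 1.20 RPKM and shares no window. It had 35.3, 21.7 and 15.2 normalized reads in VE-PTPiKO IR, against 34.6, 30.8 and 22.6 in VE-PTPiKO sham. It had 25.9, 25.1 and 23.8 in Control IR, against 42.9, 21.1 and 54.8 in Control sham. Both testis paralogs were near or at 0: Rpl39l had at most 1 read in any library, and Rpl10l had 0 in all 12.

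Some regulators of TOP mRNA translation passed the test after IR and most did not. Of 18 genes listed for TOP mRNA and S6 kinase control, 0 rose, 2 fell and 16 did not pass in VE-PTPiKO, where 2.71% of all genes were called. In Control 2 rose, 6 fell and 10 did not pass, where 11.5% of all genes were called. Eif4ebp3, a binding protein that holds back the cap-binding factor eIF4E, had 18.7, 18.4 and 40.0 normalized reads in VE-PTPiKO IR, against 139, 207 and 237 in VE-PTPiKO sham. It had 25.9, 9.86 and 13.3 in Control IR, against 166, 164 and 148 in Control sham, with log2 fold changes of -2.93 ± 0.35 and -3.31 ± 0.32 (SE, adjusted p = 0.00353 and 9.9e-05 by limma). Its groups did not overlap in either genotype. Eif4ebp1, of the same family, had 678, 573 and 407 normalized reads in VE-PTPiKO IR, against 341, 190 and 314 in VE-PTPiKO sham, which missed the threshold (adjusted p = 0.102 by limma). It had 657, 833 and 732 in Control IR, against 313, 222 and 326 in Control sham, where it rose (log2 fold change 1.38 ± 0.17, SE, adjusted p = 0.000365 by limma). Sesn2, a stress protein that inhibits mTOR complex 1, had 1533, 1730 and 2003 normalized reads in VE-PTPiKO IR, against 3201, 5599 and 6080 in VE-PTPiKO sham. It had 1850, 1679 and 1787 in Control IR, against 5014, 3894 and 3665 in Control sham, with log2 fold changes of -1.45 ± 0.24 and -1.23 ± 0.13 (adjusted p = 0.0144 and 0.000146 by limma). In VE-PTPiKO the call was lost without IR replicate 1 or 2 or sham replicate 2 or 3 (adjusted p = 0.0638, 0.0700, 0.0731 and 0.0847 by limma).

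Ddit4, another inhibitor of mTOR complex 1, had a log2 fold change of -0.68 ± 0.22 in VE-PTPiKO (SE, adjusted p = 0.169 by limma) and fell in Control (-0.97 ± 0.18, adjusted p = 0.00558). Mtor itself had 5815, 7047 and 9805 normalized reads in VE-PTPiKO IR, against 10921, 14955 and 15748 in VE-PTPiKO sham. It had 10026, 6764 and 7224 in Control IR, against 12760, 17386 and 12999 in Control sham, so in both genotypes every library after IR lay below every sham library. Its log2 fold change was -0.89 ± 0.22 in VE-PTPiKO (SE, adjusted p = 0.0785 by limma), and it fell in Control (-0.85 ± 0.17, adjusted p = 0.00850, and 0.0586 without Control IR replicate 2). Tsc1, a brake on mTOR complex 1, fell in Control (-0.54 ± 0.15, adjusted p = 0.0372 by limma). That call was lost without each Control IR library and without Control sham replicate 2 or 3 (adjusted p between 0.0552 and 0.139 by limma). Rps6ka1 rose and Tsc2 fell in Control as well, both named here outside the rule. Larp1 did not pass in either genotype (-0.47 ± 0.20 in VE-PTPiKO and 0.10 ± 0.15 in Control, named outside the rule). No gene of this list was called in the interaction.

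Of 7 tested genes of the 5S particle and p53 surveillance list, Mdm2 rose in both genotypes. Over all genes, 1.92% were called higher in VE-PTPiKO and 7.48% in Control. Mdm2, the ubiquitin ligase of p53, had 2016, 1931 and 1925 normalized reads in VE-PTPiKO IR, against 1096, 1097 and 1071 in VE-PTPiKO sham. It had 2081, 2097 and 1839 in Control IR, against 1085, 919 and 1095 in Control sham. Libraries of 1 group differed little and the groups were far apart, with log2 fold changes of 0.85 ± 0.12 and 0.96 ± 0.11 (SE, adjusted p = 0.00659 and 0.000328 by limma), and in VE-PTPiKO adjusted p = 0.0596 without sham replicate 3. Cdkn1a, the p53 target that encodes p21, had a log2 fold change of 0.55 ± 0.25 in VE-PTPiKO (SE, adjusted p = 0.336 by limma) and rose in Control (1.20 ± 0.14, adjusted p = 0.000353). Of 10 tested chaperones of ribosomal proteins, 0 were called in VE-PTPiKO. In Control, where 7.48% of all genes were called higher, 1 of the 10 rose. This was Grwd1, a binding partner of Rpl3, with a log2 fold change of 0.57 ± 0.12 (adjusted p = 0.0138 by limma, 0.0948 without Control IR replicate 2, and 0.0790 in 1 model of all 12 libraries).

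None of the neighbouring lists held a gene past the threshold. Over all genes, 2.71% were called in VE-PTPiKO and 11.5% in Control, and 48.9% and 48.4% had a positive log2 fold change. Of 20 other TOP mRNAs, such as those of elongation factors, 0 were called in either genotype, with medians of 0.15 in VE-PTPiKO and 0.04 in Control. The 3 tested ribosomal protein genes that the symbol rule leaves out were not called either. Of 78 mitochondrial ribosomal protein genes, 0 were called in either genotype, with 64 positive in VE-PTPiKO (median 0.09) and 34 in Control (median -0.02). Of 75 tested genes of respiratory chain and ATP synthase subunits, 0 were called in either, with 58 positive in VE-PTPiKO (median 0.10) and 10 in Control (median -0.09).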

How the data were processed

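Bulk RNA-seq of whole mouse kidney had been processed by the submitters with FastQC, STAR, HTSeq and DESeq2 on mm10, per the submitters' processing notes. The deposited signal is gene counts that the authors divided by a size factor per library, in 1 table per genotype, each normalized separately. Both deposited tables also hold log2 fold changes, Wald scores and p-values of the authors. Whole reads were recovered for 100.0% of values (tolerance 0.02 reads). Of 23286 genes, those with a mean of at least 1 were tested within each table by limma 3.58.1 with trend on log2(value + 1), with Benjamini-Hochberg adjustment at 0.05. This is the test fixed for normalized values. Genotypes and the interaction were tested on recovered reads of all 12 libraries with joint size factors. edgeR 4.0.16 and DESeq2 1.42.0 were run on recovered reads as alternatives. The procedure was also run on simulated counts with the same spread for all genes and no deviation on transcript length. These settings differ from the data, so that run is no support for the results here. RPKM used recovered reads and the length of 1 GENCODE M21 transcript per gene. Named genes are the 5 highest and 5 lowest by log2 fold change per IR comparison, paralogs with reads, called genes, Rpl5, Rpl11, Rps6, Rps19, Rplp0, Rpl22, Rps27, Rpl39, Rpl10, Rpl3 and Rpl13a, and up to 6 called genes per other list. Rpl12 and Rpl10a were chosen after their values were seen. A few genes are not reported here by name. Members and lists were chosen with earlier results of these data known.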

Additional observations from a re-analysis of the deposited data

How the results depend on the processing

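Of 63 named gene values after IR, 51 kept their direction under every alternative run and 12 changed sign under at least 1, all of them uncalled. Counts of ribosomal protein genes called higher after IR were 0 in both genotypes. They became 2 in Control with the replicate block (Rpl3 and Rpl34), which is 2.44% of the 82, where 7.28% of all genes were called higher. They became 1 in VE-PTPiKO in 1 model of all 12 libraries, where 624 of 16339 genes were called higher. Without the 3 libraries with high Malat1 they became 2 in Control, where 8.39% of all genes were called higher, and 1 in VE-PTPiKO, where 484 of 16273 were. VE-PTPiKO against Control in sham also had 1 without those 3 libraries. Leaving out single libraries gave 0 to 10 in VE-PTPiKO, where 0.658% to 5.79% of all genes were then called higher, and 0 to 2 in Control (3.75% to 8.39%). Correlations of deviations between same-numbered libraries were 0.301, -0.200 and 0.0400 in VE-PTPiKO, 0.0502, 0.00252 and -0.0588 in Control, 0.205, 0.296 and 0.0957 between genotypes in sham, and 0.0820, -0.00414 and 0.0960 in IR. No comparison had all 3 over 0.1, so the numbers were not taken as pairs, and the block left VE-PTPiKO at 0. The interaction median became 0.37 without the 3 libraries. All genes called in VE-PTPiKO, 315 higher and 130 lower by limma, became 622 and 391 by DESeq2, 946 and 979 without IR replicate 3, and 108 and 18 without sham replicate 3. Without the 3 libraries, log2 fold changes in Control became -0.0620 for Rpl11, -0.14 for Rpl13a, -0.0315 for Rpl39, 0.0694 for Rpl5, -0.18 for Rplp0, 0.15 for Rps27 and -0.11 for Rps27l, and in VE-PTPiKO 0.13 for Rpl22. Rplp0 in Control was -0.004035 by edgeR and -0.005056 by DESeq2, and Rpl11 in VE-PTPiKO was -0.11 after the length correction. Leaving out single libraries gave, in Control, -0.0620 to 0.25 for Rpl11, -0.14 to 0.18 for Rpl13a, -0.0437 to 0.0504 for Rpl22, -0.0315 to 0.21 for Rpl39, -0.46 to 0.0694 for Rpl5, -0.18 to 0.14 for Rplp0, -0.54 to 0.29 for Rps27, -0.11 to 0.16 for Rps27l and -0.0648 to 0.35 for Rps6. In VE-PTPiKO it gave -0.10 to 0.16 for Rpl11, -0.18 to 0.16 for Rpl22 and -0.52 to 0.28 for Rpl5. The causes were not tested. Of the 84 genes, 38 had under 100 reads in some library.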
